A study of Homo sapiens with 6 samples.

Results

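Epithelial cells hold on to each other through adherens junctions and desmosomes. In YCC3 cells after silencing of CTNNB1, 33 genes of these junctions and of related cadherins were followed, called junction genes here. The set comprises cadherins, among them some that are not part of either junction, desmosomal cadherins and plaque proteins, the 4 nectins with their anchor afadin, vinculin and EPCAM. A gene was taken where an array row carried its symbol and no other, and the brightest such row over all arrays stood for it. This gave 31 of the 33 genes, among 18417 genes in all; the signals of CDH4 and CDH13 were not analysed here. EPCAM had several rows and the other 30 genes had 1 row each.

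YCC3 is a human gastric cancer cell line. It was transfected with CTNNB1 siRNA (3 samples) or with non-targeting control siRNA (3 samples), and RNA was taken 48 hours later and read on an Affymetrix Human Gene 1.0 ST array. Both groups were thus transfected cells of 1 line; siRNA sequences, dose and an untransfected group are not given in the labels. The samples are called biological replicates, with no word on separate cultures, and the p-values speak only of the spread among these 6 samples. Values are log2 RMA signals, on which a difference of 1 is a doubling of signal, and the median over all array rows was 5.88 to 5.95.

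Classical cadherins span the membrane and bind beta-catenin, the product of CTNNB1, through their cytoplasmic tail; alpha-catenin and vinculin then tie the complex to actin. Desmosomal cadherins (desmocollins and desmogleins) bind plakoglobin and plakophilins instead, and desmoplakin links these to keratin filaments. Nectins are immunoglobulin-like receptors that do not bind beta-catenin: their tails bind afadin, and they pair with each other across neighbouring cells early in junction assembly. The comparison asks whether the transcripts of these junction partners differ when CTNNB1 is silenced.

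Of the junction genes, 3 nectins and 1 cadherin passed the test. NECTIN4 and NECTIN2 rose by 47.3% and 35.7%, NECTIN3 fell by 32.2%, and CDHR5, a cadherin of intestinal microvilli and not of adherens junctions or desmosomes, rose by 55.5%. No classical, type II or desmosomal cadherin and no plaque protein gene passed the test. A gene is said to have risen or fallen where its adjusted p was under 0.05 in limma, a linear model fitted over all 18417 genes with Benjamini-Hochberg adjustment.

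In counts, 3 of the 31 genes rose, 1 fell and 27 did not pass. The 4 genes are 12.9% of the set, against 4.72% of all genes called (870 of 18417, 2.07% higher and 2.65% lower). Dim genes are rarer in the set: 10 of the 31 genes, against 8507 of all 18417, lay below the median on all 6 arrays. With the dimmest 50% of genes removed, 6 of the 20 junction genes left passed, against 1861 of 9208 genes, so the contrast depends on the background taken. The median log2 change was 0.05 over the 31 genes and 0.01 over all genes. Groups did not overlap for 12 of the 31 genes, which is 38.7% against 26% of all genes. These were 6 genes higher and 6 lower, where 10.8% of all genes were higher and 15.2% lower without overlap. An unadjusted p under 0.05 was found for 8 of the 31 genes, which is 25.8% against 20.3% of all genes. By these last measures the set stood nearer to the background than by its called genes. The genes were picked with earlier results of these arrays known, so no test of the set as a whole is given.

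**Figure D1:**
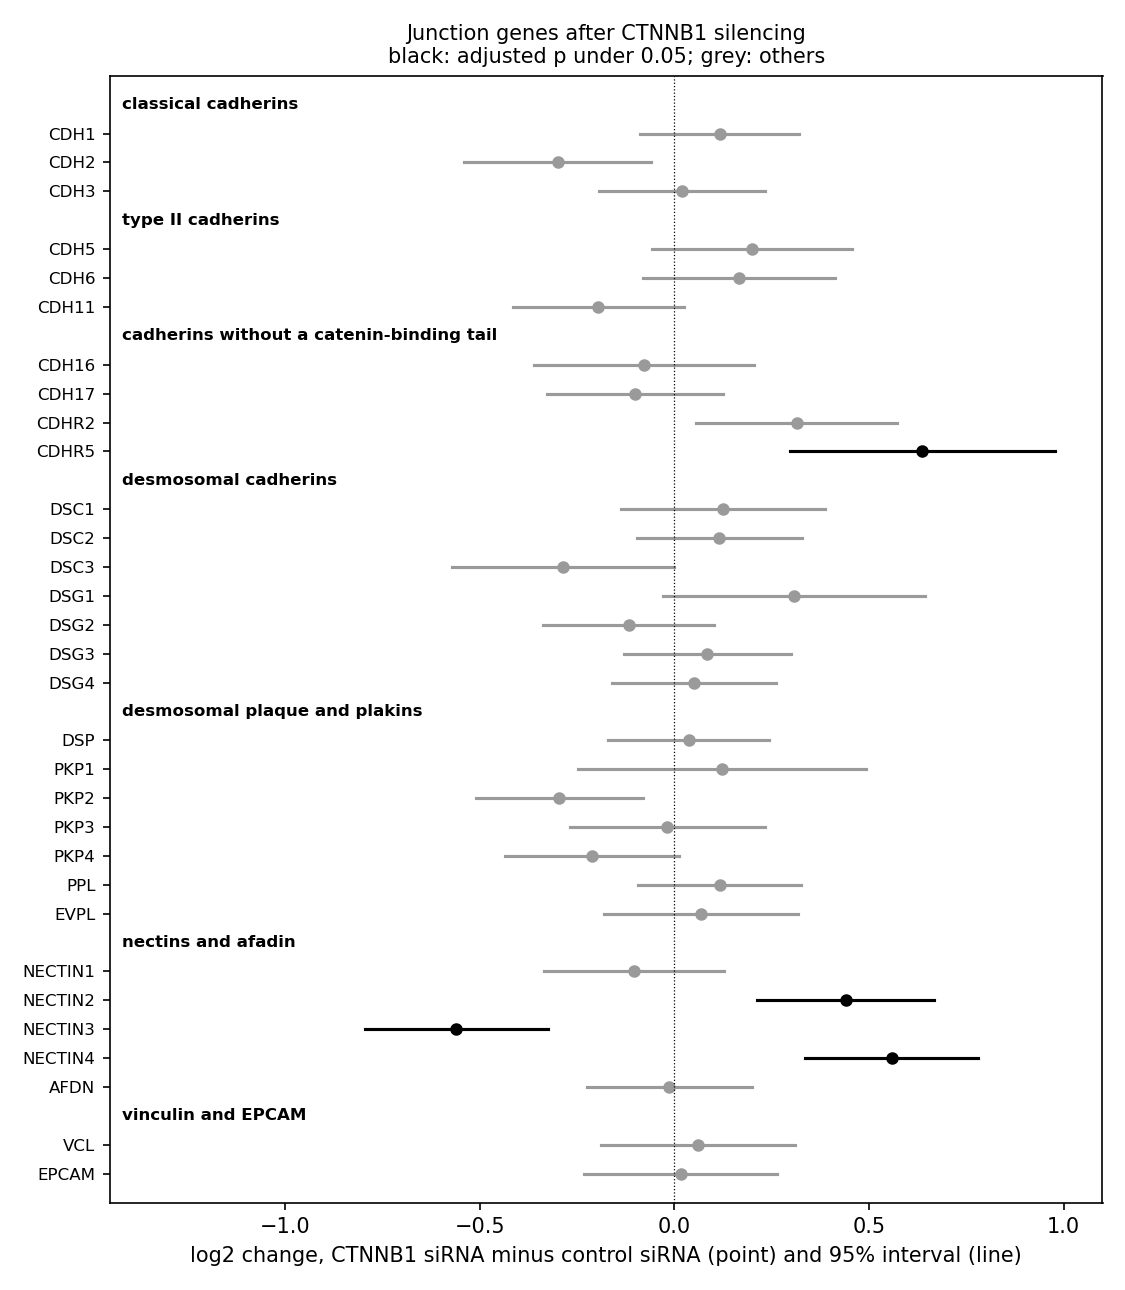
Log2 change (CTNNB1 siRNA minus control siRNA, points) with its 95% interval (lines) for the 31 measured junction genes, grouped by role. The 4 genes that passed the test are black: NECTIN4, NECTIN2 and CDHR5 lie right of 0 and NECTIN3 left of it, while the 27 grey genes lie between -0.30 and 0.31.

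The silencing itself was seen on every array. CTNNB1 measured 10.94, 11.06 and 11.20 with CTNNB1 siRNA, against 11.80, 11.81 and 11.90 with control siRNA, and fell by 41.4% (log2 change -0.77 ± 0.10, SE; limma, adjusted p = 0.00267). The silenced samples thus kept 0.586 times the control CTNNB1 signal. In the same samples all 8 listed interferon-stimulated genes rose, between 1.53 log2 units for OAS1 and 4.28 for RSAD2. Their part in the changes of junction genes was not tested. In RNA from whole cultures, fewer cells of a type and less RNA per cell cannot be told apart.

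The upstream sequences of the 3 nectin genes that changed are shown because these genes moved in opposite directions within 1 family. Each is the 250 bases before the gene's start in RefSeq (GRCh38.p14), 5′ to 3′ along the gene. Capitals mark matches to the 4 motifs searched.
NECTIN4, chr1:161089559-161089808, minus strand: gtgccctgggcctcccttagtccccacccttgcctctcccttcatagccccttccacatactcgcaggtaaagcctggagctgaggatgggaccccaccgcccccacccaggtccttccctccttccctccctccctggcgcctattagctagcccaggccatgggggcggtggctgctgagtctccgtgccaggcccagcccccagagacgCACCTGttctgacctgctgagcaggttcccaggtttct
NECTIN3, chr3:111071566-111071815, plus strand: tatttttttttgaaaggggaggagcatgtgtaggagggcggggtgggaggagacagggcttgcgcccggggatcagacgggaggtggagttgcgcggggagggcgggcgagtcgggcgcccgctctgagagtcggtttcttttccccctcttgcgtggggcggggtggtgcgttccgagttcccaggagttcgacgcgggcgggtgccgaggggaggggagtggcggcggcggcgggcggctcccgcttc
NECTIN2, chr19:44846047-44846296, plus strand: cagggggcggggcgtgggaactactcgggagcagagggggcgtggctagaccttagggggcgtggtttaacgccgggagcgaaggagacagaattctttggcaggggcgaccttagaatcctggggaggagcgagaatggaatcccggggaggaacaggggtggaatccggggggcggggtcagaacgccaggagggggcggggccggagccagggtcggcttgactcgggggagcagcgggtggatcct

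The motifs were the E-box CACCTG, read by SNAI and ZEB repressors, the TCF/LEF sequences CTTTGAT and CTTTGAA, and the interferon response sequence (GAAA, any 2 bases, GAAA), on both strands. The 2 TCF/LEF sequences share their first 6 letters. They were searched in windows of 300 bases (250 before and 50 after the start), which the table gave for 17 of the 33 genes and 27305 genes in all. CDHR5, which passed the test, and CDH1 were among the genes without a window and were not searched. NECTIN4 has 1 E-box, starting 38 bases before the start, and NECTIN2 and NECTIN3 have no match to any of the 4. The E-box was in 8 of the 17 windows (47.1%), against 20.6% of all windows: AFDN, CDH4, CDHR2, DSC2, DSG1, DSG2, DSP and NECTIN4. CDH4 is counted here for its sequence alone, and of the others only NECTIN4 passed the test. This share too rests on only 17 windows, and a link between E-boxes and the changes was not tested. AFDN had 4 matches. Neither TCF/LEF sequence was in any of the 17 windows, against 6.98% of all windows with either. The interferon response sequence was in none of them, against 3.65% of all windows. At such shares few matches, or none, would be expected among 17 windows, so these absences tell little. A match is a run of letters, not a bound site. The 3 printed stretches are rich in G and C (65.2%, 69.2% and 67.6% for NECTIN4, NECTIN3 and NECTIN2), against a median of 58% over all genes.

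NECTIN4 and NECTIN2 rose and NECTIN3 fell, while NECTIN1 and afadin did not pass the test. NECTIN4, a nectin that is abundant in many carcinomas and serves as an epithelial receptor for measles virus, measured 7.91, 7.93 and 7.82 with CTNNB1 siRNA, against 7.20, 7.41 and 7.37 with control siRNA. All 3 silenced samples lay above all 3 control samples, by more than the spread within either group. The log2 change was 0.56 ± 0.10 (SE; 95% interval 0.34 to 0.78), or 1.47-fold (limma, adjusted p = 0.0129). It missed the threshold when CTNNB1 siRNA replicate 1 (adjusted p = 0.0637) or control replicate 1 (adjusted p = 0.0751) was left out, with a log2 change of at least 0.49 whichever array was left out.

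NECTIN2, a ligand of the lymphocyte receptor CD226 as well as a junction receptor, measured 8.64, 8.43 and 8.37 with CTNNB1 siRNA, against 8.04, 8.01 and 8.07 with control siRNA. The control samples were close together and the silenced samples spread upward from them. Its log2 change was 0.44 ± 0.10 (SE; 95% interval 0.21 to 0.67), or 1.36-fold (limma, adjusted p = 0.0394). This call rested on most single arrays. Leaving out CTNNB1 siRNA replicate 1 gave an adjusted p of 0.134 and replicate 2 one of 0.0794, and leaving out control replicate 1, 2 or 3 gave 0.144, 0.0966 or 0.0982.

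NECTIN3, the partner that nectin-1 and nectin-2 bind on the opposite cell, went the other way. It measured 7.85, 7.62 and 7.92 with CTNNB1 siRNA, against 8.36, 8.36 and 8.34 with control siRNA. The 3 control samples agreed within 0.01 (SD), and the silenced samples all lay below them, CTNNB1 siRNA replicate 2 lowest. The log2 change was -0.56 ± 0.11 (SE; 95% interval -0.79 to -0.32), with a signal of 0.678 times that of control (limma, adjusted p = 0.0164). Leaving out CTNNB1 siRNA replicate 1 or 2 moved the adjusted p to 0.0611 or 0.0504, and leaving out control replicate 1 or 3 moved it to 0.0772 or 0.0560.

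NECTIN1, a herpes simplex virus entry receptor that binds both nectin-3 and nectin-4, measured 6.54, 6.49 and 6.34 with CTNNB1 siRNA, against 6.58, 6.66 and 6.44 with control siRNA. The groups overlapped, and the 95% interval of the log2 change ran from -0.34 to 0.13 (adjusted p = 0.635). AFDN, which encodes afadin, the actin-binding protein to which nectin tails attach, measured 8.19, 8.19 and 8.33 with CTNNB1 siRNA, against 8.28, 8.19 and 8.28 with control siRNA. Its groups overlapped too, with a log2 change of -0.01 ± 0.09 (SE; adjusted p = 0.960), and the sign turned under quantile and cyclic loess scaling.

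**Figure D2:**
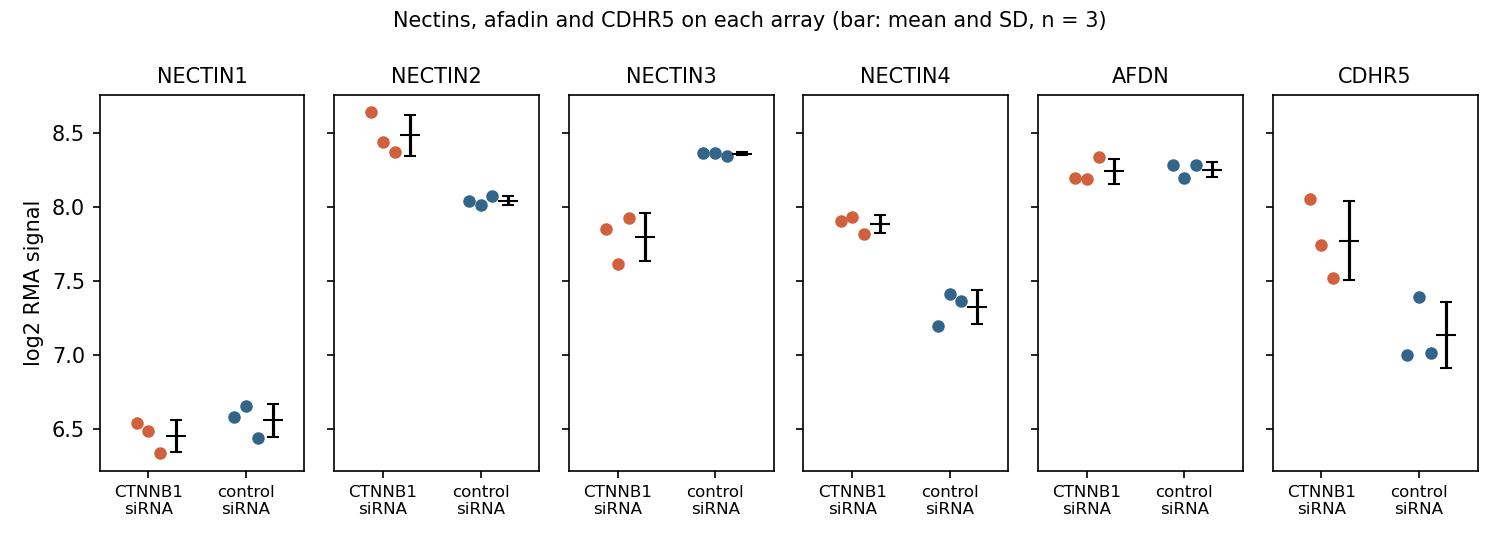
Log2 RMA signal of the 4 nectins, afadin and CDHR5 on each array (points; bars give mean and SD, n = 3), CTNNB1 siRNA left and control siRNA right in each panel. The groups are apart for NECTIN2, NECTIN3, NECTIN4 and CDHR5 and overlap for NECTIN1 and AFDN; heights are not comparable between genes.

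CDHR5 rose, while the other measured cadherins without a catenin-binding tail did not pass the test. CDHR5 and CDHR2 are protocadherins that link the tips of neighbouring microvilli in the intestinal brush border. CDHR5 measured 8.05, 7.74 and 7.52 with CTNNB1 siRNA, against 7.0, 7.39 and 7.01 with control siRNA. The lowest silenced sample and the highest control sample were close, so the groups only just stayed apart. The log2 change was 0.64 ± 0.15 (SE; 95% interval 0.30 to 0.98), or 1.55-fold, with an adjusted p of 0.0450 in limma. Leaving out CTNNB1 siRNA replicate 1 or 2 ended the call (adjusted p = 0.156 or 0.102), as did leaving out control replicate 1 or 3 (0.168 or 0.149).

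CDHR2, the binding partner of CDHR5, measured 6.16, 6.08 and 6.07 with CTNNB1 siRNA, against 6.00, 5.75 and 5.60 with control siRNA. The groups did not overlap, but the log2 change of 0.31 ± 0.12 (SE) did not pass (adjusted p = 0.158). Its signal lay below the median of all genes on all 6 arrays and was not shown to be above background. CDH17, liver-intestine cadherin, measured 10.80, 10.88 and 11.06 with CTNNB1 siRNA, against 10.98, 10.99 and 11.06 with control siRNA. These groups overlapped (log2 change -0.10 ± 0.10, SE; adjusted p = 0.636). CDH16, kidney-specific cadherin, had a log2 change of -0.08 ± 0.13 (SE; adjusted p = 0.781), at a signal below the median of all genes on all 6 arrays.

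None of the 3 measured classical cadherins, which bind beta-catenin directly, passed the test. CDH1, which encodes E-cadherin, measured 9.002, 9.05 and 9.06 with CTNNB1 siRNA, against 8.86, 8.98 and 8.93 with control siRNA. The silenced samples were all above the control samples, yet by a small step: the log2 change was 0.12 ± 0.09 (SE; adjusted p = 0.533). Its 95% interval, from -5.93% to 24.9% in signal, leaves room for a modest difference in either direction. CDH3, which encodes P-cadherin, measured 7.96, 7.86 and 7.77 with CTNNB1 siRNA, against 7.86, 7.79 and 7.89 with control siRNA, and these groups overlapped (adjusted p = 0.941).

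CDH2, which encodes N-cadherin, typical of neural and mesenchymal cells, measured 6.995, 7.10 and 7.24 with CTNNB1 siRNA, against 7.33, 7.36 and 7.55 with control siRNA. All 3 silenced samples were below all 3 control samples. The log2 change of -0.30 ± 0.11 (SE; 95% interval -0.54 to -0.06) did not pass (limma, adjusted p = 0.150), though it did with the dimmest 50% of genes removed (adjusted p = 0.0472). Of the type II cadherins, CDH5 (VE-cadherin of endothelium) and CDH6 lay among the dimmest 25% of genes on all 6 arrays, with log2 changes of 0.20 ± 0.12 and 0.17 ± 0.11 (SE). CDH11, a cadherin of osteoblasts and fibroblasts, had a log2 change of -0.20 ± 0.10 (SE; adjusted p = 0.303), without overlap between its groups.

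The 7 desmosomal cadherin genes did not pass the test either. DSG2, the desmoglein of simple epithelia, measured 9.84, 9.94 and 10.04 with CTNNB1 siRNA, against 10.10, 9.98 and 10.11 with control siRNA. DSC2, the desmocollin of simple epithelia, measured 8.64, 8.74 and 8.79 with CTNNB1 siRNA, against 8.595, 8.56 and 8.68 with control siRNA. Groups overlapped for both genes, with log2 changes of -0.12 ± 0.10 for DSG2 (adjusted p = 0.560) and 0.12 ± 0.10 for DSC2 (adjusted p = 0.550; SE).

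The other 5 desmosomal cadherins are known from stratified epithelia and hair, and their signals were below the median of all genes on all 6 arrays. DSC3 measured 5.22, 4.97 and 5.24 with CTNNB1 siRNA, against 5.31, 5.31 and 5.67 with control siRNA. Its groups did not overlap, but the log2 change of -0.29 ± 0.13 (SE) had an adjusted p of 0.245. DSC1, DSG1, DSG3 and DSG4 lay among the dimmest 25% of genes on all 6 arrays, with log2 changes between 0.05 (DSG4) and 0.31 (DSG1). Signals this low were not shown to be above background, so that a change of these genes might not be visible.

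CDH2 and the 7 desmosomal cadherin genes lie side by side on chromosome 18, in the order CDH2, DSC3, DSC2, DSC1, DSG1, DSG4, DSG3, DSG2 among protein-coding genes. None of these 8 neighbours passed. Log2 changes were negative for CDH2, DSC3 and DSG2 and positive for the other 5 genes, so the cluster showed no common sign. CDH3 and CDH1 are neighbours on chromosome 16, as are CDH11 and CDH5.

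Plaque genes of the desmosome did not pass the test, with log2 changes from -0.30 to 0.12 over 7 genes. PKP2, a plakophilin of simple epithelia and heart, came nearest. It measured 9.53, 9.47 and 9.52 with CTNNB1 siRNA, against 9.89, 9.69 and 9.81 with control siRNA. The groups did not overlap, and the log2 change was -0.30 ± 0.10 (SE; 95% interval -0.51 to -0.08; limma, adjusted p = 0.115). It passed under a trended, robust variance (adjusted p = 0.0368) and with the dimmest 50% of genes removed (adjusted p = 0.0324).

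DSP, which encodes desmoplakin, the link to keratin filaments, measured 9.73, 9.84 and 9.76 with CTNNB1 siRNA, against 9.81, 9.73 and 9.69 with control siRNA. PKP3, a plakophilin found in most epithelia, measured 8.13, 8.40 and 8.04 with CTNNB1 siRNA, against 8.16, 8.22 and 8.25 with control siRNA. Groups overlapped for both (adjusted p of 0.869 for DSP and 0.952 for PKP3), and the sign for PKP3, at -0.02, turned under quantile and cyclic loess scaling. PKP4, an armadillo protein of the p120-catenin family, had a log2 change of -0.21 ± 0.10 (SE; adjusted p = 0.272), without overlap between groups. PPL and EVPL, which encode the plakins periplakin and envoplakin, measured 0.12 ± 0.09 and 0.07 ± 0.11 log2 units (SE), and the dim PKP1 0.12 ± 0.17.

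**Figure D3:**
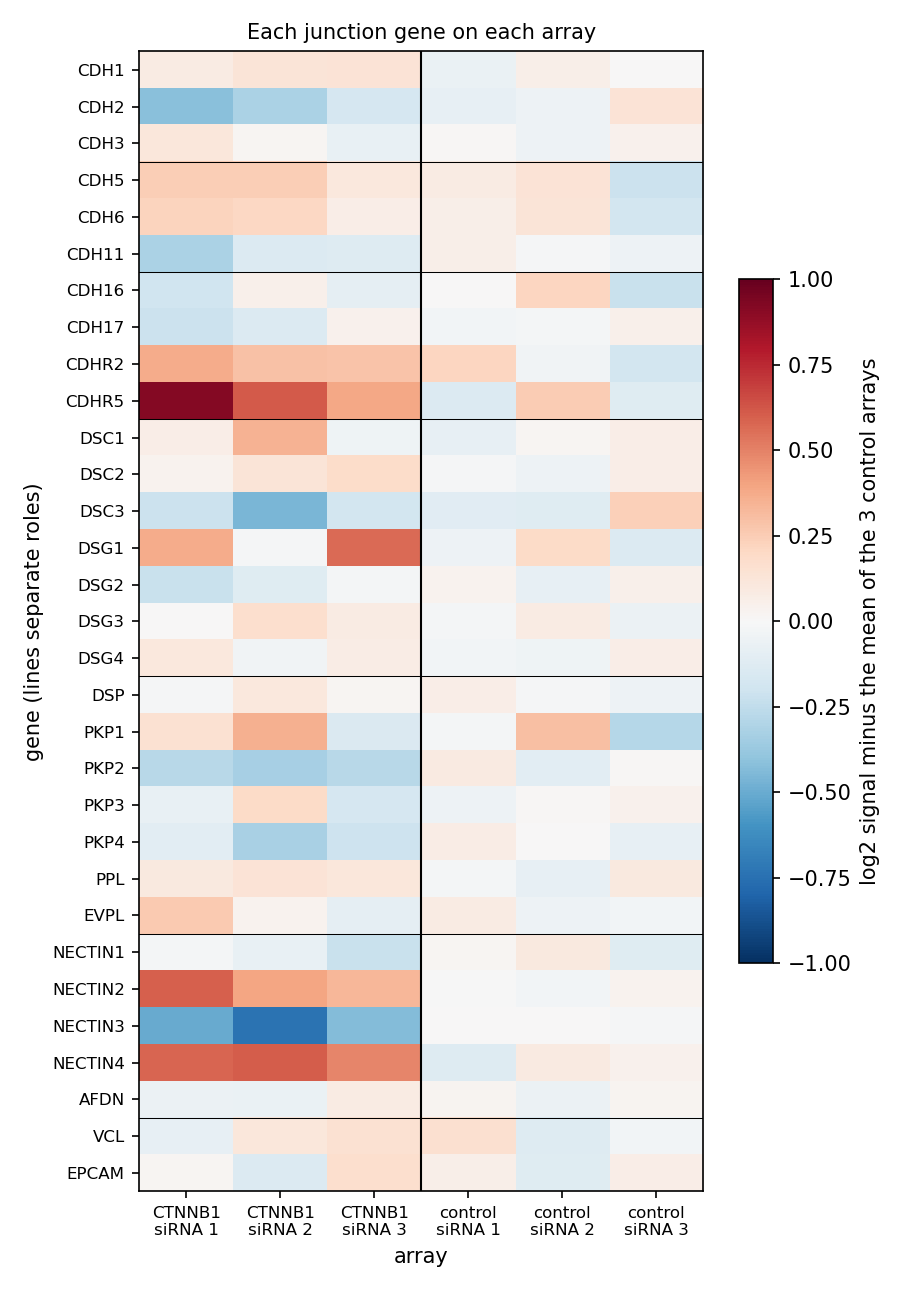
Log2 signal of the 31 junction genes on each array minus the mean of the 3 control arrays (colour scale from -1 to 1), CTNNB1 siRNA arrays left of the vertical line, control arrays right. NECTIN2, NECTIN4 and CDHR5 are red and NECTIN3 is blue on all 3 CTNNB1 siRNA arrays, and most other rows are pale.

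Vinculin and EPCAM, 1 at the cytoplasmic and 1 at the outer face of epithelial contacts, overlapped between groups. VCL measured 8.29, 8.48 and 8.52 with CTNNB1 siRNA, against 8.53, 8.24 and 8.34 with control siRNA. EPCAM, an epithelial adhesion molecule, measured 11.80, 11.64 and 11.95 with CTNNB1 siRNA, against 11.84, 11.66 and 11.85 with control siRNA. Log2 changes were 0.06 ± 0.11 (SE; adjusted p = 0.812) and 0.02 ± 0.11 (SE; adjusted p = 0.956). The dimmer row of EPCAM gave -0.03 ± 0.09 (SE), also with overlapping groups. The annotation gives both rows this symbol, and which locus each reads was not checked.

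A miss of the threshold does not show that the 27 genes kept their level. Data were simulated for this comparison over 18417 genes, of which 200 were changed. The test recovered 26% of genes changed by 0.5 log2 units and 81% of those changed by 1, and 6.96% of its calls were false. The arrays themselves gave 870 calls. As the adjusted p depends on how many genes change, the shares recovered may differ for the arrays. For 26 of the 27 genes the 95% interval of the change excluded a 1.5-fold difference in either direction. The exception was DSG1, whose interval reached 56.3% more signal. Of the called changes, only that of CDHR5 (1.55-fold) exceeded this bound. Those of NECTIN2 (1.36-fold), NECTIN4 (1.47-fold) and NECTIN3 (0.678 times control) were smaller, so the bound does not exclude changes of their size. CDH5, CDH6, DSC1, DSG3 and DSG4 were dim on every array and not shown to be above background. A narrow interval for these genes does not show that their transcripts were unchanged. Of all 31 genes, 21 had a log2 change smaller than 0.2 in size.

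Genes that work with these receptors were counted from lists. Of 16 measured scaffold and turnover genes of junctions, LMO7 rose, PARD3 fell and 14 did not pass. The called genes are 12.5% of this list, against 4.72% of all genes. LMO7 encodes a protein that binds afadin and alpha-actinin, and measured 9.74, 9.71 and 9.88 with CTNNB1 siRNA, against 9.28, 9.23 and 9.21 with control siRNA. The groups were far apart relative to their spread (log2 change 0.54 ± 0.10, SE; limma, adjusted p = 0.0128). PARD3, a polarity protein that binds nectin tails, measured 7.72, 7.73 and 7.85 with CTNNB1 siRNA, against 8.29, 8.09 and 8.24 with control siRNA. Its groups were apart as well (log2 change -0.44 ± 0.10, SE; limma, adjusted p = 0.0343). LMO7 lost its call without CTNNB1 siRNA replicate 1 (adjusted p = 0.0505), control replicate 1 (0.0544) or control replicate 3 (0.0513). PARD3 lost it when CTNNB1 siRNA replicate 1 (0.123) or 2 (0.0957), or control replicate 1 (0.156) or 3 (0.109), was left out.

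Of 25 further cadherin genes, FAT1 fell and 24 did not pass, which is 4% called against 4.72% of all genes. This list is mostly dim: 20 of the 25 lay below the median of all genes on all 6 arrays, 15 of them among the dimmest 25%. A change of such genes might not be visible, so the 2 shares are not compared on like signals. FAT1, a very large cadherin at cell contacts, measured 7.71, 7.89 and 7.81 with CTNNB1 siRNA, against 8.79, 8.27 and 8.31 with control siRNA. Control replicate 1 was the highest, and the log2 change was -0.65 ± 0.14 (SE; limma, adjusted p = 0.0289). The call was lost under quantile (adjusted p = 0.0527) and cyclic loess scaling (0.0551). It also failed when CTNNB1 siRNA replicate 1 (0.125), 2 (0.0609) or 3 (0.0587), or control replicate 1 (0.0874) or 3 (0.0553), was left out.

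None of 8 nectin-like molecules and nectin ligands passed in limma, where 1 had an unadjusted p under 0.05. CADM1, a nectin-like adhesion molecule, had a log2 change of -0.34 ± 0.10 (SE; adjusted p = 0.101), and CD226, the lymphocyte receptor for nectin-2, 0.23 ± 0.11 (SE; adjusted p = 0.255) at a dim signal. None of 10 regulators of cadherin transcription passed, and 2 had an unadjusted p under 0.05: OVOL1 (0.29 ± 0.12, adjusted p = 0.207) and OVOL2 (-0.21 ± 0.09, adjusted p = 0.239; SE), both zinc finger factors that keep cells epithelial. Among 8 measured catenin genes, which leave out CTNND1, CTNNB1 alone passed, and 3, CTNNB1 included, had an unadjusted p under 0.05. Such a p was found for 37.5% of these catenins, 20% of the regulators and 12.5% of the nectin-like list, against 20.3% of all genes. JUP, which encodes plakoglobin, had a log2 change of 0.33 ± 0.12 (SE; adjusted p = 0.154), and CTNNAL1, an alpha-catenin relative, -0.36 ± 0.11 (SE; adjusted p = 0.104), both without overlap between groups.

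Markers fit the label of an epithelial line. All 10 epithelial markers, keratins and claudins among them, lay above the median of all genes on all 6 arrays. All 8 leukocyte and 7 endothelial markers and 6 of 7 fibroblast markers lay below it on all 6, and the exception, COL1A1, lay near it. None of these last 3 lists had a called gene in limma (none at an unadjusted p under 0.05 either). Of the epithelial markers TFF1, CLDN4 and ELF3 rose, by 1.15 ± 0.11, 0.61 ± 0.10 and 0.48 ± 0.12 log2 units (SE; limma, adjusted p = 0.000314, 0.00763 and 0.0462), and 7 did not pass. KRT18 and LYZ were lower without overlap between groups but did not pass. Their log2 changes were -0.29 ± 0.10 and -0.28 ± 0.09 (SE; limma, adjusted p = 0.127 and 0.113). An unadjusted p under 0.05 was found for 70% of this list (5 markers higher and 2 lower), against 20.3% of all genes. The called markers are 30% of the epithelial list, against 4.72% of all genes. ELF3 lost its call whichever of the 6 arrays was left out (adjusted p from 0.0548 to 0.184) and with a replicate block (0.0613).

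The 4 junction genes that passed with all 6 arrays also passed under each of 9 other settings run on all 6 arrays, which changed the scaling, the filter on dim genes, the variance, the weights, the row per gene or the replicate block. With 1 array left out, all 4 passed when this was CTNNB1 siRNA replicate 3, and 3 passed when it was control replicate 2. NECTIN4 alone passed without CTNNB1 siRNA replicate 2 or control replicate 3, and none passed without CTNNB1 siRNA replicate 1 or control replicate 1. Over all genes, the calls numbered 283 without CTNNB1 siRNA replicate 1, 421 without replicate 2, 288 without control replicate 1 and 372 without control replicate 3. The sign of each of the 4 changes was kept throughout.

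**Figure D4:**
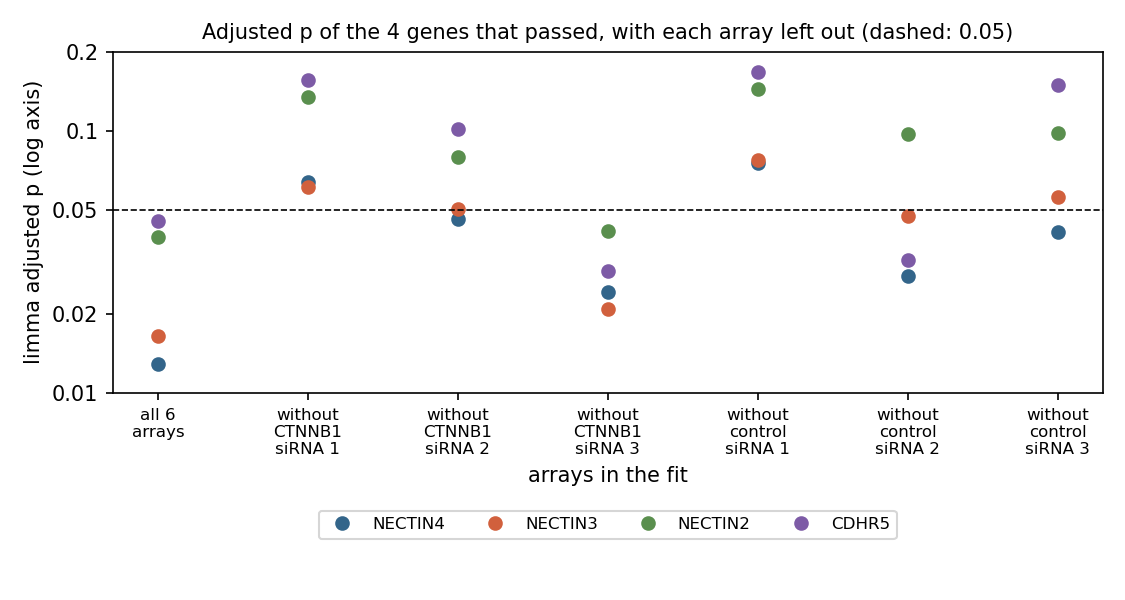
Limma adjusted p (log axis) of NECTIN4, NECTIN3, NECTIN2 and CDHR5 in the fit to all 6 arrays and with each array left out; the dashed line is 0.05. All 4 points are under the line with all 6 arrays and without CTNNB1 siRNA replicate 3, and all 4 are above it without CTNNB1 siRNA replicate 1 or control replicate 1.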

How the data were processed

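The authors deposited log2 signals. RMA and Affymetrix Expression Console 1.1 are named in the submitters' processing notes, and the log2 scale follows from the range of the values (0.789 to 14.5). RMA brings the probes of all arrays to a common distribution before they are summarised per row, which largely removes a shift common to most genes; the summarised values still differed slightly between arrays. For the authors' genome build and annotation version, no source used here gives a name. No scanner intensities were used here, so whether a dim signal exceeds background is unknown. With 3 arrays per group, their number limits the precision.

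Of 33297 rows, 19460 had 1 gene symbol, 1754 several and 12083 none; 19429 of the first were matched to RefSeq by gene ID. The brightest row per gene left 18417 genes. Each gene was tested two-sided with limma (3.58.1, R 4.3.3; lmFit, eBayes) for the difference of CTNNB1 siRNA from control siRNA. The fit was checked on simulated data, with the shares recovered given beside the genes that did not pass. No arrays within a group were identical.

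All 6 array values are given for the 8 junction genes with the smallest p and for the best known genes of each role except the type II cadherins. From the other lists, log2 changes are given for genes that passed (as a range for the interferon-stimulated genes), or otherwise for those with the smallest p, and array values for some of them. NECTIN1 was given in full, and KRT18 and LYZ were added, after their values were seen. The genes and lists were chosen with earlier results of these data known. Other settings are in the closing section.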

Additional observations from a re-analysis of the deposited data

How the results depend on the processing

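The 15 other settings gave 448 values for the junction genes: 409 kept sign and side of the threshold, 15 lost a call, 3 gained one and 21 changed sign. With all 6 arrays the number of junction genes that fell became 3 with the dimmest 50% of genes removed and 2 with trended, robust variance, and the catenins called became 3 and 2. The calls over all genes became 1483 with the dimmest 25% removed, 1861 with the dimmest 50% removed and 1622 with trended, robust variance. With all genes and arrays these calls were 382 higher and 488 lower, against 488 and 379 under cyclic loess, 586 and 1036 with trended, robust variance, and 193 and 95 without control replicate 1. The further cadherins called became 0 under quantile and under cyclic loess scaling. Leaving out 1 array gave 0 to 4 junction genes called (0 to 3 higher, 0 to 1 lower), 283 to 877 over all genes, 0 to 1 further cadherins and 0 to 2 scaffold genes. Signs turned for genes near 0: PKP3 to 0.0356 and AFDN to 0.0379 under quantile scaling, to 0.0448 and 0.0506 under cyclic loess, VCL to -0.000358 with array weights and EPCAM to -0.00838 with the mean of all rows. With 1 array left out the ranges were -0.0272 to 0.0647 for CDH3, -0.190 to 0.0295 for CDH16, -0.0213 to 0.275 for PKP1, -0.121 to 0.0569 for PKP3, -0.0256 to 0.149 for EVPL, -0.0600 to 0.0133 for AFDN, -0.00404 to 0.139 for VCL and -0.0611 to 0.0941 for EPCAM.

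Deviations of same-numbered samples correlated at -0.02, 0.33 and 0.22, and those of differently numbered samples at -0.29 to 0.08. Replicates 2 and 3 correlated best with their own number and replicate 1 did not, so the fit was kept without pairing, as a shared source is not given in the labels. With the replicate block, 4 junction genes and 1177 of all genes were called, against 4 and 870 without it. Dim genes limit what these arrays can show.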
